A study of Mus musculus with 19 samples.

Results

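Of the 54532 genes in the count table, 10 are genes of the circadian clock, taken by their symbols: Arntl, Clock and Npas2, the positive arm of the loop, and Nr1d1, Nr1d2, Per1, Per2, Per3, Dbp and Tef, which that arm switches on. Each symbol matched 1 row, and all 10 genes passed the filter on low counts in every comparison. RNA was sequenced from whole obstructed left kidneys of 19 male mice 8 to 9 weeks old on the C57BL/6J background, taken on day 12 after unilateral ureteral obstruction (UUO), in which the ureter is tied off and the kidney scars while the other kidney stays intact. The mice were wild type (WT) or lacked CD5L (CD5L KO), a protein that macrophages release into blood, and had daily injections into the abdomen of recombinant CD5L (rCD5L, 0.5 mg per mouse) or the same volume of PBS. There were 5 kidneys of WT mice given PBS, 5 of WT mice given rCD5L, 4 of CD5L KO mice given PBS and 5 of CD5L KO mice given rCD5L, and all 4 groups had the obstruction, the injections and a heparin perfusion at the end. How the CD5L gene was deleted, and the hour at which each kidney was taken, are not given in the sources used here. According to the study's methods, no formal randomization was done, and operations, injections and sample processing went in turn from group to group.

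The clock is a loop of transcription that takes about a day. ARNTL (also named BMAL1) pairs with CLOCK or NPAS2 and switches on genes that carry an E-box, among them the Per and Cry genes, whose proteins in turn block ARNTL and CLOCK. Nr1d1 and Nr1d2 encode REV-ERB alpha and beta, which repress Arntl through RORE motifs, while Dbp and Tef encode transcription factors that carry the rhythm to genes with a D-box. In most organs, the kidney included, the RNA of Arntl and Npas2 peaks when that of Dbp and the Per genes is low, so levels of both arms vary with the hour at which tissue is taken. Per1 also responds within hours to glucocorticoids and other stimuli.

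Near the start sites of 5 of these genes stand motifs through which the loop is known to run. In the promoter windows of RefSeq (GRCm38.p6, the build of the files, from 250 bases before to 50 bases after a start site), 9 of the 10 genes had an entry, with 14 windows in all. Both strands were searched for 5 motifs. The E-box was CACGTG. The E-prime box, a variant of it, was AACGTG or its reverse strand. The D-box was TTATGTAA, TTACGTAA or the reverse strand of the former. The RORE core was TAGGTCA or the same with G at its second place, and the full RORE was either core with AAAG before it or the former with AATG before it. The E-box stood in 3 windows, of Per1 and Tef, and in 7.15% of all 32851 windows. The E-prime box stood in that of Nr1d1 (4.68% of all windows), the D-box in that of Per3 (1.06%) and the RORE core in 1 of the 2 windows of Arntl (6.45%), where it was part of a full RORE (0.0578%). The windows of Clock, Npas2, Nr1d2 and Dbp held none of these motifs. A match is a description of letters and not of binding. Shown are the 250 bases before a start site of Nr1d1, the gene that differed between the genotypes, of Per1 and Tef, which moved against Arntl between kidneys, and 27 bases around the RORE core of Arntl, which begins 30 bases after a start site. Motifs are in capitals.
Nr1d1, chr11:98775378-98775627 (- strand): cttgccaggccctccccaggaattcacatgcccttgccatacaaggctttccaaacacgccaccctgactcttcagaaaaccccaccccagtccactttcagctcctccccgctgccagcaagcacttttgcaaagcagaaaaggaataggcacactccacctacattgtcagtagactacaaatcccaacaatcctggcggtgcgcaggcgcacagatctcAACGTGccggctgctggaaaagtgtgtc
Per1, chr11:69098699-69098948 (+ strand): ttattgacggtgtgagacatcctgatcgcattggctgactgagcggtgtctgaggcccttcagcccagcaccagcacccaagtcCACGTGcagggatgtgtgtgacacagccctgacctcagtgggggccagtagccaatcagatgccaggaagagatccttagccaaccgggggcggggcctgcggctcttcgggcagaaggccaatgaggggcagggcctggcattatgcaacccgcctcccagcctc
Tef, chr15:81811164-81811413 (+ strand): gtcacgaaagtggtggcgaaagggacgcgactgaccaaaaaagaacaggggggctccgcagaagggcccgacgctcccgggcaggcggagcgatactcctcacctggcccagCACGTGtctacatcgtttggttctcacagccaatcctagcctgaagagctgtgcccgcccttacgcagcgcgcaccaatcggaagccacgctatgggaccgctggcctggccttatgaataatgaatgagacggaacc
Arntl, chr7:113207531-113207557 (+ strand): aggcagaaagTAGGTCAgggacggagg

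Between 17917491 and 23847090 reads were counted per kidney. Cd5l had 0 counts in all 9 CD5L KO kidneys, where a count of 0 allows up to 3 counts, and 3 to 15 counts in the 10 WT kidneys. Markers of proximal tubule, distal nephron, macrophages, fibroblasts and endothelium were all detected in every group. Of the kidneys of CD5L KO mice given rCD5L, replicates 3 and 4 stood apart: their scaling factors (TMM, which corrects a library for a few genes that take many reads) were 0.874 and 0.682, against 0.968 to 1.07 in the other 17. In replicate 4, 10.3% of the counts were mitochondrial, against 2.34% to 4.55% in the others, and the 6 proximal tubule markers summed to 11917 CPM (reads of a gene scaled to libraries of one size), against 877 to 2052 CPM in the WT and PBS groups. The main results that hold these 2 kidneys are given with and without them.

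Levels of different genes were compared per length, as FPKM (fragments per length of gene and size of library). Over the 19 kidneys the median was 22.2 FPKM for Nr1d2, 19.1 for Nr1d1, 18.4 for Tef and 16.9 for Dbp. These 4 genes overlapped in range and do not have a fixed order. Per1 followed at 9.47 FPKM, then Clock at 3.73, Per3 at 3.66 and Per2 at 3.59, which again overlapped. Npas2 (1.01 FPKM) and Arntl (0.896 FPKM) were the lowest, with ranges of 0.470 to 1.26 FPKM and 0.427 to 1.29 FPKM, so the ARNTL partner with the higher RNA level in these kidneys was Clock. Between kidneys, the highest CPM was 1.68 times the lowest for Per3 and 3.10 times for Nr1d1, with the other 8 genes in between. The plot of CPM by kidney gives every value.

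**Figure D1:**
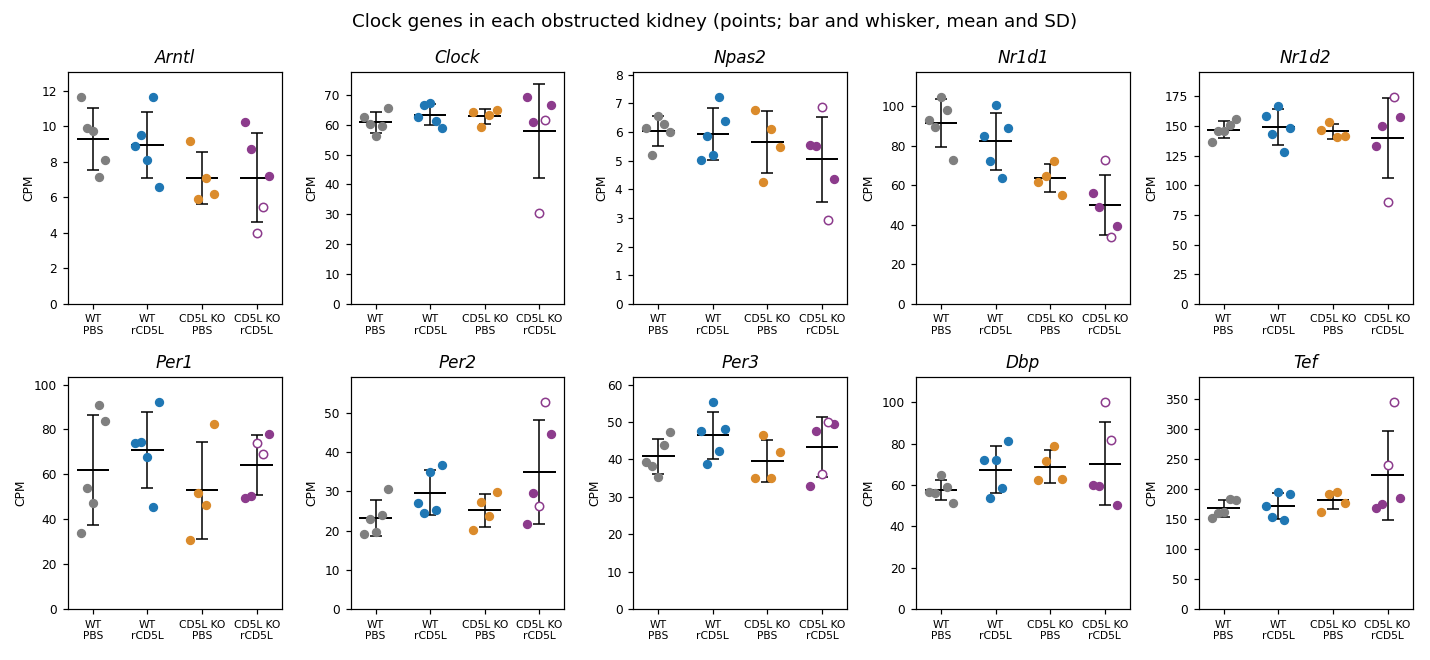
CPM of the 10 clock genes (1 panel each, axis from 0) in 19 obstructed kidneys by group, with the mean as a bar, the SD as a whisker and 1 point per kidney. Open points are the 2 kidneys of CD5L KO mice given rCD5L that stood apart. The 4 kidneys of CD5L KO mice given PBS sit between 55.4 and 72.6 CPM for Nr1d1, all below the lowest WT kidney given PBS at 72.9 CPM.

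The first comparison asks how the kidney without CD5L differs from the WT kidney, both given PBS. Nr1d1, the repressor of Arntl, fell in CD5L KO mice, and it was the only clock gene of the 10 that passed the test. It had 61.8, 65.0, 72.6 and 55.4 CPM in the 4 CD5L KO kidneys and 93.0, 89.5, 105, 98.0 and 72.9 CPM in the 5 WT kidneys. No CD5L KO kidney reached a WT kidney, although the highest and the lowest of them nearly met. The log2 fold change was -0.53 (SE 0.10, adjusted p = 0.00867, quasi-likelihood test of edgeR, Benjamini-Hochberg adjustment over 17579 genes), that is, 0.691 times the WT level. Of all genes, 10.5% were called in this comparison (5.13% higher and 5.40% lower), and 1 of the 10 clock genes was, a share near that background. Groups did not overlap for 14.1% of all genes and for 1 of these 10. With all 4 groups in 1 fit, the log2 fold change of Nr1d1 was -0.53 and the adjusted p 0.235, so the call was lost in that fit, where 12 genes were called (0.0650%). In bulk RNA of a whole kidney, fewer cells of a type and less RNA per cell cannot be told apart.

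Nr1d1 (ENSMUSG00000020889, chromosome 11, 98767932 to 98775333, minus strand of GRCm38) shares its last 1075 bases with Thra, the thyroid hormone receptor alpha gene on the other strand, and the strand setting of the counting is not given in the sources used here, so reads of these bases cannot be told apart. Thra itself had a log2 fold change of -0.12 (SE 0.060, adjusted p = 0.212, edgeR). Its paralog Nr1d2 (ENSMUSG00000021775, chromosome 14, 18204054 to 18239127), which encodes REV-ERB beta, had 140 to 154 CPM in the CD5L KO kidneys and 137 to 156 CPM in the WT kidneys, and a log2 fold change of -0.023 (SE 0.054, adjusted p = 0.835). Nr1d1 and Nr1d2 thus gave different values in the same kidneys, but the difference between the 2 genes was not tested. Markers of other cells moved in the same comparison. The 6 fibroblast and myofibroblast markers summed to 2380 to 3204 CPM in CD5L KO kidneys and 3432 to 5164 CPM in WT kidneys, with 5 of 6 called, all lower. The 6 endothelial markers summed to 491 to 545 CPM and 571 to 667 CPM, with 3 of 6 called, all lower. All 6 urothelial markers were higher with 0 called, at sums of 256 to 422 CPM against 132 to 275 CPM. Of the markers of proximal tubule, distal nephron, T and B cells and macrophages, 1 was called, a macrophage marker that was lower, and their medians lay between -0.097 and -0.033. Fold changes of this comparison also fell with gene length (Spearman's rho = -0.28, over 17579 genes and so with no p), and Nr1d1 is 3077 bases long. The part of each of these in the Nr1d1 value was not tested.

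Of the positive arm, 0 of 3 genes passed the test, and the median log2 fold change was -0.10 against -0.0046 over all genes. Arntl (ENSMUSG00000055116, chromosome 7, 113207465 to 113314126), without which the loop stops, had 9.20, 5.93, 7.08 and 6.20 CPM in CD5L KO kidneys and 11.7, 9.90, 9.74, 7.14 and 8.10 CPM in WT kidneys. The groups overlapped through the first CD5L KO kidney, and the log2 fold change of -0.40 (SE 0.17) had an unadjusted p of 0.0360 and an adjusted p of 0.155 under edgeR. These values rest on 120 to 264 counts per kidney. Its partner Clock (ENSMUSG00000029238, chromosome 5, 76209868 to 76304792) was the steadiest of the arm, at 59.3 to 64.8 CPM against 56.1 to 65.6 CPM. Npas2 (ENSMUSG00000026077, chromosome 1, 39193731 to 39363236), the other partner of ARNTL, had 4.24 to 6.76 CPM against 5.20 to 6.57 CPM.

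Of the arm that the E-box drives, 1 of 7 genes passed, Nr1d1, and the median log2 fold change was -0.023. Dbp (ENSMUSG00000059824, chromosome 7, 45705088 to 45710203), which encodes an activator of D-box genes, stood the other way from Nr1d1. It had 62.4, 71.5, 79.1 and 62.8 CPM in CD5L KO kidneys and 56.9, 56.1, 64.7, 59.0 and 51.3 CPM in WT kidneys. Only WT replicate 3 reached into the CD5L KO range. The log2 fold change was 0.25 (SE 0.082, adjusted p = 0.0718, edgeR). It passed with DESeq2 (0.26, adjusted p = 0.0402, 17.8% of genes called) and without WT replicate 3 given PBS (0.30, adjusted p = 0.0353, 2062 genes called). Dbp shares 737 bases with Sphk2 on the other strand, which had a log2 fold change of 0.057 (adjusted p = 0.661, edgeR). Its relative Tef (ENSMUSG00000022389, chromosome 15, 81802421 to 81826863) had 163 to 195 CPM against 153 to 184 CPM, a log2 fold change of 0.10 (SE 0.074).

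The Per genes encode the repressors that close the loop, and 0 of 3 passed. Per1 (ENSMUSG00000020893, chromosome 11, 69095217 to 69109960) had 30.9, 51.6, 46.5 and 82.2 CPM in CD5L KO kidneys and 34.1, 53.8, 47.3, 91.0 and 83.6 CPM in WT kidneys. The spread within a group was therefore far wider than the difference between the means of 52.8 ± 21 CPM (SD, n = 4) and 61.9 ± 24 CPM (SD, n = 5). In both groups the kidney numbered 1 was the lowest and that numbered 4 the highest. The dispersion fitted by edgeR gave Per1 a coefficient of variation between kidneys of 30.6%, above that of 92.3% of all genes tested, against 7.09% for Nr1d2 and 6.96% for Clock, near the low end of all genes. Per2 (ENSMUSG00000055866, chromosome 1, 91415982 to 91459324) had 20.1, 27.3, 23.8 and 29.7 CPM against 19.2, 22.8, 19.5, 23.9 and 30.5 CPM. Its highest WT kidney was replicate 5, a number that no CD5L KO kidney given PBS had. Per3 (ENSMUSG00000028957, chromosome 4, 151003652 to 151044665) had 35.0 to 46.5 CPM against 35.3 to 47.3 CPM. The whole of Per3 lies within Camta1 on the same strand.

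**Figure D2:**
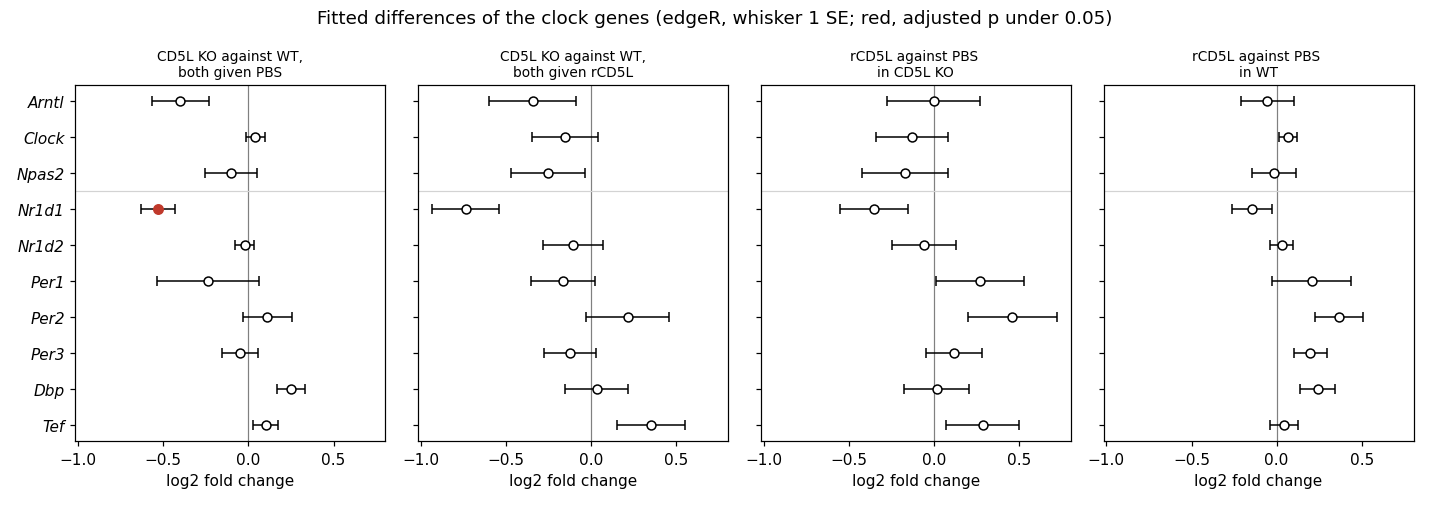
Fitted log2 fold changes of the 10 clock genes (rows, the positive arm above the line) in 4 comparisons (panels), with 1 SE as a whisker. The red point is the one with an adjusted p under 0.05, Nr1d1 in CD5L KO against WT kidneys given PBS (-0.53), and open points did not pass.

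The same comparison in mice given rCD5L asks whether the genotypes still differ with the protein supplied. Nr1d1 had 55.9, 49.1, 72.8, 33.8 and 39.7 CPM in CD5L KO kidneys and 85.2, 72.3, 101, 64.0 and 88.9 CPM in WT kidneys. Only CD5L KO replicate 3, 1 of the 2 that stood apart, reached into the WT range. The log2 fold change was -0.74 (SE 0.20), with an unadjusted p of 0.00294 and an adjusted p of 0.259 (edgeR). Of all genes, 0 of 17360 were called (0%), with 3090 at an unadjusted p under 0.05 and 64 called by DESeq2, and 0 of the 10 clock genes passed. Without replicates 3 and 4, the value for Nr1d1 was -0.78 (SE 0.14, adjusted p = 0.0200), where 3.58% of all genes were called and 1 of the 10 clock genes. With all 4 groups in 1 fit it was -0.71 (adjusted p = 0.0349), where 7.00% were called. These kidneys are not those of the comparison under PBS, so no sample is shared between them. The fibroblast markers summed to 1199 to 4501 CPM in CD5L KO and 3585 to 4910 CPM in WT kidneys, and the endothelial markers to 474 to 505 CPM and 523 to 574 CPM, with 0 of 6 called in either list. All 6 proximal tubule markers were higher (median log2 fold change 1.45, 4 with an unadjusted p under 0.05), at sums of 1140 to 11917 CPM, with a median kidney of 1279 CPM, against 877 to 1354 CPM. All 6 distal nephron markers were higher (median 0.32), and all 6 T and B cell markers (-0.35) and all 6 macrophage markers (-0.17) were lower, with 0 called in any of these lists. Of the urothelial markers, 5 of 6 were higher (0.38). Fold changes fell with gene length here too (rho = -0.28, over 17360 genes). The part of these in the Nr1d1 value was not tested.

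The other 9 clock genes overlapped between the genotypes under rCD5L, and their adjusted p-values from edgeR were at least 0.352. The largest of their log2 fold changes was that of Tef, 0.35 (SE 0.20), which had 168, 176, 241, 346 and 185 CPM in CD5L KO kidneys and 148 to 195 CPM in WT kidneys. The 2 values above the WT range were replicates 3 and 4, and without them the log2 fold change was 0.024 (SE 0.092). Without both, the values of these 9 genes ranged from -0.27 for Dbp (SE 0.12, adjusted p = 0.221) to 0.095 for Per2 (SE 0.20), and that of Arntl went from -0.34 (SE 0.25) to -0.046 (SE 0.18). Clock had 69.4, 60.9, 30.3, 61.6 and 66.7 CPM in CD5L KO kidneys and 59.0 to 67.3 CPM in WT kidneys. Its low value was replicate 3, which also had the lowest Nr1d2, 86.1 CPM against 133 to 175 CPM in the others. In replicate 4, Npas2 had 2.91 CPM on 38 counts, the lowest of all 19 kidneys.

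The next comparisons ask what rCD5L does within a genotype. They share their PBS kidneys with the first comparison and their rCD5L kidneys with the one above. In WT mice, 0 of 17455 genes were called (0%) by edgeR, with 2797 at an unadjusted p under 0.05 and 508 called by DESeq2. Per2 had 26.9, 24.5, 35.0, 25.2 and 36.6 CPM with rCD5L and 19.2, 22.8, 19.5, 23.9 and 30.5 CPM with PBS. All 5 kidneys given rCD5L were above the PBS median, although the highest PBS kidney stood above 3 of them. The log2 fold change was 0.37 (SE 0.14, unadjusted p = 0.0208, adjusted p = 0.223, edgeR). Dbp had 53.7 to 81.4 CPM with rCD5L and 51.3 to 64.7 CPM with PBS, a log2 fold change of 0.24 (SE 0.10, adjusted p = 0.259). Per3 had a log2 fold change of 0.20 (SE 0.098, adjusted p = 0.345). Of the E-box driven arm, 6 of 7 genes had a positive log2 fold change and a median of 0.20, against 0.0046 over all genes, and 0 passed the test. Nr1d1 was the exception at -0.14 (SE 0.12), and the positive arm had a median of -0.015. Fold changes of this comparison rose with gene length (Spearman's rho = 0.24, over 17455 genes and so with no p), and the 7 genes are 2993 to 9608 bases long. All 6 proximal tubule markers were lower with 0 called, at sums of 877 to 1354 CPM with rCD5L against 1012 to 2052 CPM with PBS, and all 6 T and B cell markers were higher with 0 called, at 24.3 to 46.2 CPM against 18.6 to 41.4 CPM. Of the endothelial markers, 5 of 6 were lower, 4 of the 6 with an unadjusted p under 0.05 and 0 called, at 523 to 574 CPM against 571 to 667 CPM. All 6 urothelial markers were lower as well (median -0.19). The 3 of 5 epididymis markers that passed the filter were all higher (median 0.81, 2 with an unadjusted p under 0.05, 0 called), and the 5 summed to 11.6 to 29.2 CPM against 8.42 to 18.9 CPM. The part of each of these in the values of the arm was not tested.

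In CD5L KO mice, 0 of 17467 genes were called (0%) by edgeR, with 502 at an unadjusted p under 0.05 and 3 called by DESeq2. Per2 again had the largest log2 fold change of the clock genes, 0.46 (SE 0.26, adjusted p = 0.897), at 21.6, 29.7, 26.1, 52.8 and 44.7 CPM with rCD5L against 20.1, 27.3, 23.8 and 29.7 CPM with PBS. Without replicates 3 and 4 it was 0.35 (SE 0.21, adjusted p = 0.635). The value for Nr1d1 was -0.35 (SE 0.20, adjusted p = 0.897), and -0.40 (SE 0.12, adjusted p = 0.397) without those 2 kidneys. Arntl had 10.2, 8.71, 3.99, 5.44 and 7.21 CPM with rCD5L, so that the 2 lowest values of all 19 kidneys were replicates 3 and 4, and a group mean of 7.12 ± 2.5 CPM (SD, n = 5) against 7.10 ± 1.5 CPM (SD, n = 4) with PBS. Its log2 fold change was 0.00016 (SE 0.27) over all kidneys and 0.30 (SE 0.19, adjusted p = 0.643) without those 2. That of Dbp was 0.017 (SE 0.19) and -0.28 (SE 0.099, adjusted p = 0.425). In this comparison all 6 proximal tubule markers (median 1.23), all 6 distal nephron markers (0.48) and all 3 epididymis markers tested (1.35) were higher and all 6 urothelial markers (-0.46) lower, with 0 called, and the 5 epididymis markers summed to 17.3 to 43.4 CPM with rCD5L against 6.29 to 16.0 CPM with PBS. Their part in the values of the clock genes was not tested. The interaction of genotype and rCD5L passed for 0 of 18454 genes (0%) under edgeR and 0 under DESeq2, with 1154 genes at an unadjusted p under 0.05. Among the clock genes the interaction ranged from -0.20 (SE 0.23) for Dbp to 0.27 (SE 0.23) for Tef. Without the 2 kidneys it was -0.52 for Dbp (SE 0.16, unadjusted p = 0.00390, adjusted p = 0.965, edgeR), -0.076 for Tef (SE 0.12) and 0.36 for Arntl (SE 0.26).

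A single test per gene asked for any difference among the 4 groups, and here Nr1d1 was again the only clock gene to pass (adjusted p = 0.0315, edgeR), 1 of 10 against 2.25% of 18454 genes. The fitted group levels spanned 0.87 on the log2 scale, and the group means ran from 91.7 ± 12 CPM (SD, n = 5) in WT mice given PBS over 82.2 ± 14 CPM (SD, n = 5) in WT mice given rCD5L and 63.7 ± 7.1 CPM (SD, n = 4) in CD5L KO mice given PBS to 50.3 ± 15 CPM (SD, n = 5) in CD5L KO mice given rCD5L. Each group in this order overlapped with the next. The call was lost, with adjusted p between 0.0535 and 0.0714, when any 1 of these 10 kidneys was left out: replicates 1, 2 and 3 of CD5L KO mice given PBS, replicates 1, 2, 3 and 4 of WT mice given PBS, and replicates 1, 3 and 5 of WT mice given rCD5L. Without replicates 3 and 4 of CD5L KO mice given rCD5L the adjusted p was 0.00054, where 19.5% of genes were called. Averaged over both treatments, a contrast chosen after seeing the data, CD5L KO kidneys had a log2 fold change of -0.62 for Nr1d1 (SE 0.12, adjusted p = 0.00680, edgeR, 10.7% of genes called), and -0.66 (SE 0.094, adjusted p = 0.000146, 21.6% called) without the 2 kidneys. Averaged over both genotypes, rCD5L gave 0.41 for Per2 (SE 0.15, unadjusted p = 0.0148, adjusted p = 0.563), where 0 of 18454 genes were called (0%), and 0.36 (SE 0.14, adjusted p = 0.154) without them, where 438 genes were called (2.34%).

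Between kidneys of the same group, Arntl was high where several genes of the E-box driven arm were low. For Arntl and Dbp, the pair chosen to stand for the arms, the deviations from the group means had Pearson's r = -0.68 (p = 0.0159) and Spearman's rho = -0.70 (p = 0.00742) over 19 kidneys (two-sided permutation tests within groups). The 2 kidneys whose Arntl level was farthest from the median of all kidneys were replicates 3 and 4 of CD5L KO mice given rCD5L, the same that stood apart in scaling. Without them r was -0.31 (p = 0.306) and rho -0.27 (p = 0.357, permutation tests, 17 kidneys), so the relation no longer held. After subtracting the group means, the 2 kidneys farthest from the median in Arntl were replicates 1 and 3 of the same group, and without these, a choice made after seeing the data, r was -0.52 (p = 0.0742) and rho -0.54 (p = 0.0507, permutation tests, 17 kidneys). Replicate 3 is in both sets, and the relation of this pair thus rests in part on it. The other 44 of the 45 pairs are given without a test, and their points share library and depth. Arntl and Per1 had r = -0.74 and rho = -0.78 over 19 kidneys, and r = -0.88 over 17. Arntl and Tef had r = -0.75 and rho = -0.89, and r = -0.85 over 17. Arntl and Per2 had r = -0.51 and rho = -0.54, and r = -0.81 over 17. The other 3 genes of the arm were less close to Arntl over 19 kidneys, with r = -0.36 for Per3, -0.23 for Nr1d1 and 0.20 for Nr1d2, and over 17 they had -0.69, -0.078 and -0.63. The kidneys with much Arntl RNA were thus those with little Per1, Per2 and Tef RNA, with the values of 17 kidneys at least as far from 0 as those of 19. The r of Arntl over 19 kidneys were also ranked from the lowest among 14322 genes. Tef lay at percentile 0.48, Per1 at 0.57, Dbp at 1.8, Per2 at 11, Per3 at 23, Nr1d1 at 33 and Nr1d2 at 66. Ranked from the other gene, Arntl lay at percentile 0.028 for Per1, 5.7 for Dbp and 5.8 for Tef. Arntl lay at 12 for Per2, 18 for Per3, 35 for Nr1d1 and 63 for Nr1d2. Many other genes thus stood as low against Arntl as Per2 did.

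**Figure D3:**
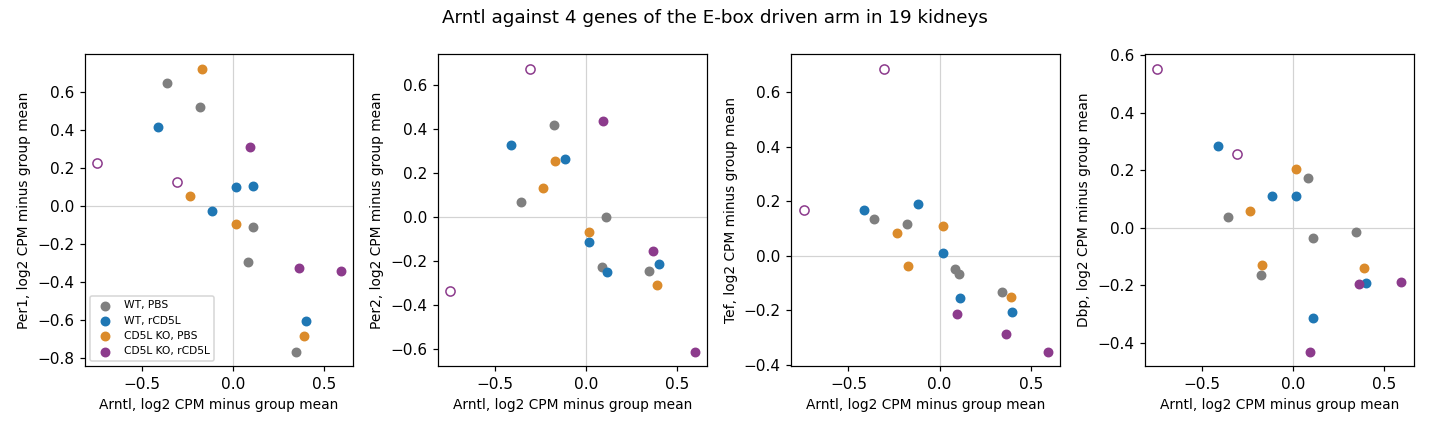
Deviation of Arntl from its group mean (x axis, log2 CPM) against that of Per1, Per2, Tef and Dbp (y axes, log2 CPM, 1 panel each) in 19 kidneys, coloured by group. Open points are the 2 kidneys that stood apart: r with Dbp is -0.68 with and -0.31 without them, and that with Per1 is -0.74 with and -0.88 without them.

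Within the E-box driven arm, the 21 pairs had a median r of 0.21 over 19 kidneys and 0.52 over 17, and 14 and 16 of them were positive. Per2 and Per3 moved together most closely (r = 0.84, rho = 0.85, and r = 0.84 over 17). Nr1d1 and Dbp had r = 0.57 over 19 kidneys and 0.83 over 17, and neither followed the Per genes closely. With Per1, Per2 and Per3, r was -0.083, -0.52 and -0.37 for Nr1d1 and 0.14, 0.055 and -0.050 for Dbp over 19 kidneys, and -0.17, -0.28 and -0.15 for Nr1d1 and -0.0035, -0.0017 and 0.061 for Dbp over 17. With Nr1d2, Nr1d1 had -0.54 over 19 and 0.18 over 17, and Dbp had -0.36 and 0.18. With Tef, Nr1d1 had -0.083 and 0.38, and Dbp had 0.68 and 0.55. Across the arms, the 21 pairs had a median r of -0.36 over 19 kidneys and -0.39 over 17. The pair Clock and Nr1d2 had r = 0.81 over 19 kidneys and 0.038 over 17, and replicate 3 of CD5L KO mice given rCD5L was the lowest in both. The mean log2 deviation of the positive arm minus that of the E-box driven arm ranged from -0.12 to 0.47 in WT mice given PBS, from -0.32 to 0.50 in WT mice given rCD5L, from -0.29 to 0.49 in CD5L KO mice given PBS and from -0.74 to 0.42 in CD5L KO mice given rCD5L. All 4 ranges overlapped, and each group held kidneys on both sides of 0. The part of the hour of collection in these values was not tested.

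**Figure D4:**
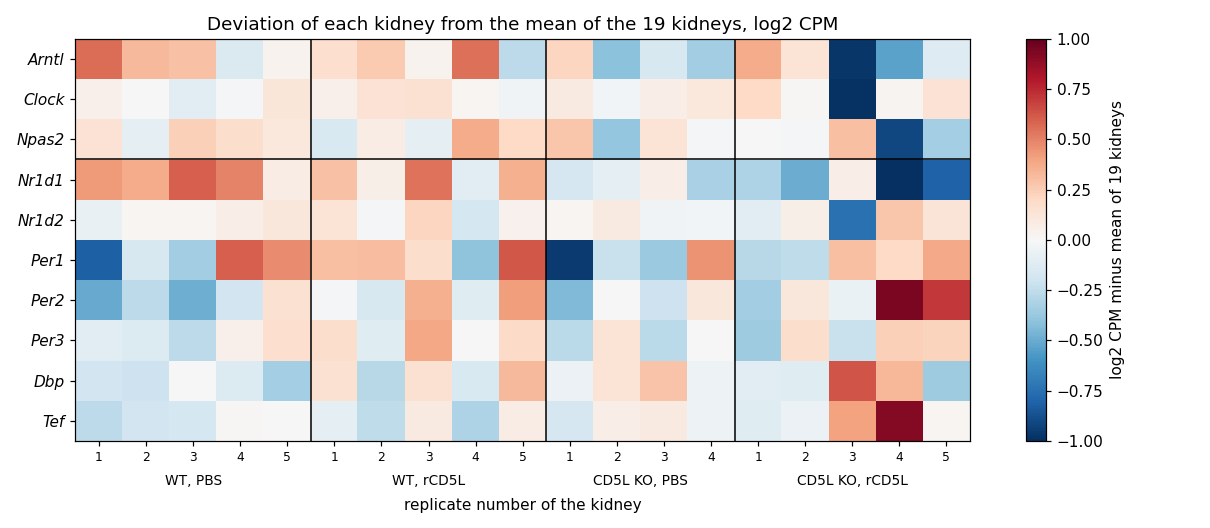
Deviation of each of 19 kidneys (columns, by group and replicate number) from the mean of all kidneys, in log2 CPM (colour, cut at -1 and 1), for the 10 clock genes (rows, the positive arm above the line). Nr1d1 is above its mean in all 5 WT kidneys given PBS, and in each group some kidneys are high in Arntl and low in Per1 and others the reverse.

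By likeness over all 19 kidneys after subtracting group means, among the 14313 genes whose mean log2 CPM reached 1, the 5 genes nearest to Arntl were Gadd45a (r = 0.89), Zik1 (0.88), Rp2 (0.88), H3f3a (0.87) and Pdgfd (0.86), and the 5 farthest were Angptl4 (-0.89), Bcl2l1 (-0.87), Tarbp2 (-0.87), Plk3 (-0.84) and Mfsd11 (-0.84). Over 17 kidneys these r ranged from 0.73 to 0.94 and from -0.77 to -0.68, the highest being that of Gadd45a, a growth arrest and DNA damage gene. For Dbp the nearest genes included Rhbdd3 (0.88), Ulk1 (0.88) and Ppp1r16a (0.87), and the farthest included Zfp472 (-0.91), Kpna3 (-0.90), Arl14ep (-0.90) and Dnajc10 (-0.89). Over 17 kidneys these ranged from 0.70 to 0.73 and from -0.80 to -0.70. The points of each r share library and depth, and no test was made.

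Of 16 other genes of the clock loop, 2 passed in CD5L KO against WT kidneys given PBS, both lower, beside 10.5% of all genes called and 5.40% called lower, with a median log2 fold change of -0.098 against -0.0046 over all genes. Bhlhe40, which encodes the repressor DEC1, had 198, 206, 260 and 239 CPM against 271 to 284 CPM (log2 fold change -0.29, SE 0.076, adjusted p = 0.0296, edgeR). Csnk1e, which encodes a casein kinase that marks PER proteins, had 48.8 to 54.4 CPM against 56.4 to 64.6 CPM (-0.22, SE 0.058, adjusted p = 0.0291). The groups did not overlap for either gene, as for 14.1% of all genes. The largest log2 fold changes of the list were 0.41 for Fbxl21 and -0.59 for Ciart (SE 0.18, adjusted p = 0.0631), which encodes a further repressor. Cry1, the partner of the PER proteins, had 8.21, 7.05, 8.70 and 10.2 CPM against 5.66, 7.03, 6.71, 7.24 and 6.22 CPM (0.37, SE 0.13, adjusted p = 0.0943).

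Cry1 passed the test for any difference among the 4 groups (adjusted p = 0.0107, edgeR). Cry1 had 7.46 to 9.62 CPM in WT mice given rCD5L, and 11.3, 11.2, 13.9, 11.1 and 11.9 CPM in CD5L KO mice given rCD5L, all above the other 14 kidneys. Without replicates 3 and 4, the adjusted p of this test was 0.00135 for Cry1, and Bhlhe40 and Csnk1e passed as well (0.0420 and 0.00233), where 19.5% of genes were called. Under rCD5L alone, and without those 2 kidneys, Cry1 had a log2 fold change of 0.46 in CD5L KO against WT kidneys (SE 0.12, adjusted p = 0.0537). The lowest and the highest log2 fold change of the list were -0.60 for Bhlhe41 and 0.83 for Hlf under rCD5L, -0.46 for Arntl2 and 0.79 for Hlf with rCD5L in CD5L KO mice, and -0.26 for Arntl2 and 0.34 for Cry1 with rCD5L in WT mice. Without the 2 kidneys they were -0.39 for Bhlhe41 and 0.076 for Hlf, and -0.19 for Arntl2 and 0.038 for Hlf. None of the 6 values over all kidneys passed the test (adjusted p of at least 0.163, edgeR). These genes were listed with earlier results of the same kidneys known.

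**Figure D5:**
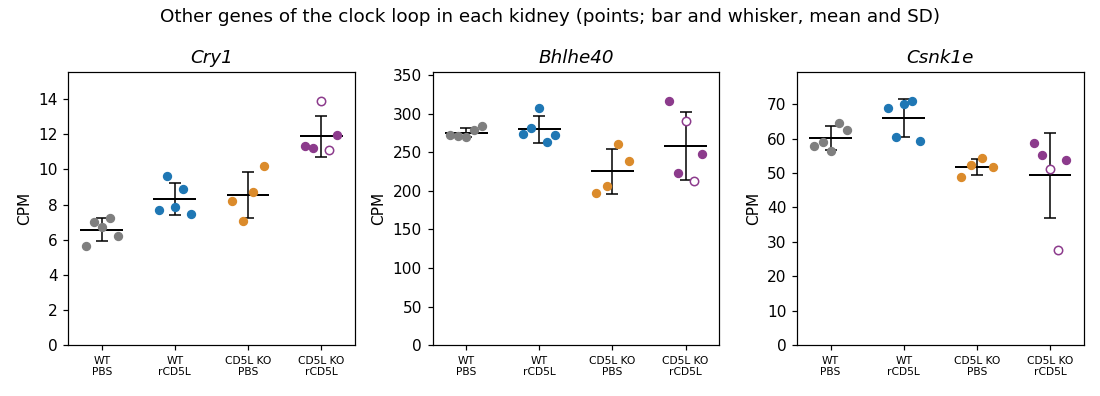
CPM of Cry1, Bhlhe40 and Csnk1e (1 panel each, axis from 0) by group, with the mean as a bar, the SD as a whisker and 1 point per kidney, open for the 2 kidneys that stood apart. The 5 kidneys of CD5L KO mice given rCD5L sit between 11.1 and 13.9 CPM for Cry1, above all others.

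Among 6 genes that follow the clock in many organs, 2 rose in CD5L KO kidneys given PBS: Nampt, the enzyme that sets the pace of NAD salvage, at 132 to 137 CPM against 108 to 116 CPM (log2 fold change 0.25, SE 0.045, adjusted p = 0.00744, edgeR), and Tspan4, a tetraspanin, at 129 to 139 CPM against 106 to 121 CPM (0.20, SE 0.054, adjusted p = 0.0366). The median of the list was -0.0027, against -0.0046 over all genes, of which 10.5% were called, 5.13% higher and 5.40% lower. The counts of the next lists stand beside the same shares. Of 6 renal transport and signalling genes that the clock is known to govern, such as Sgk1 and the sodium channel subunit gene Scnn1a, 0 passed, all 6 had a negative log2 fold change, and the median was -0.095. Of 8 genes that glucocorticoids induce, 2 passed, both lower, with a median of -0.32. Zbtb16 had 1.89, 4.37, 5.87 and 1.65 CPM against 30.1, 39.2, 24.1, 21.8 and 9.35 CPM (-2.86, SE 0.43, adjusted p = 0.00497), and Pdk4, a kinase that slows the use of glucose, had -0.48 (SE 0.13, adjusted p = 0.0345). Of 9 immediate early genes, 1 passed, Nr4a1, at -0.75 (SE 0.22, adjusted p = 0.0445), and the median was -0.33. Between kidneys of the same group, Per1 had r from 0.062 (Zbtb16) to 0.76 (Tsc22d3) with the 8 genes that glucocorticoids induce over 19 kidneys, and from 0.071 (Zbtb16) to 0.86 (Sgk1) over 17. The part of the genes of these lists in the value of Nr1d1 in CD5L KO against WT kidneys given PBS was not tested.

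With rCD5L, 0 genes of these 4 lists passed in either genotype, or between genotypes given rCD5L, where 0 of all genes tested passed. Tsc22d3 is both among the genes that follow the clock and among those that glucocorticoids induce, and Sgk1 among the latter and the renal genes. In WT mice, 7 of 8 genes that glucocorticoids induce were lower (median -0.23), and 3 of 6 that follow the clock and 4 of 6 renal genes were higher. Of the immediate early genes, 9 of 9 were lower in WT mice (-0.15) and 7 of 9 in CD5L KO mice (-0.16). In CD5L KO mice, all 6 genes that follow the clock and all 8 that glucocorticoids induce had a positive log2 fold change, with medians of 0.30 and 0.25, against 0.019 over all genes, and 5 of 6 of the renal genes did (median 0.43). Without replicates 3 and 4, 4 of 6, 5 of 8 and 5 of 6 had a positive value, with medians of 0.10, 0.14 and 0.13. The values rest on few kidneys: Usp2, a clock-driven protease, had 162 CPM in replicate 4 and 77.9 CPM in replicate 3 against 39.6 to 63.7 CPM in the other 3, and its log2 fold change was 0.78 (SE 0.37) with and 0.16 (SE 0.17) without them. Sgk1, a kinase that raises sodium uptake, had 361 CPM in replicate 4 against 66.5 to 130 CPM, and 0.88 (SE 0.51) with and 0.21 (SE 0.27) without both. The highest of the proximal tubule and mitochondrial shares were in replicate 4 as well, and their part in these values was not tested.

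The lowest and highest log2 fold change of each list, which did not pass except where said, were as follows. In CD5L KO against WT kidneys given PBS they were -0.32 for Tsc22d3 and 0.25 for Nampt, -0.28 for Sgk1 and -0.026 for Edn1, -2.86 for Zbtb16 and 0.25 for Mt2, and -0.81 for Fosb and 0.067 for Junb, in the order of genes that follow the clock, renal genes, genes that glucocorticoids induce and immediate early genes. Given rCD5L they were -0.069 for Tsc22d3 and 0.80 for Por, -0.35 for Edn1 and 0.86 for Slc9a3, -0.16 for Fkbp5 and 0.81 for Sgk1, and -0.81 for Fos and 0.23 for Atf3. With rCD5L in CD5L KO mice they were 0.15 for Tsc22d3 and 0.78 for Usp2, -0.064 for Edn1 and 0.88 for Sgk1, 0.049 for Pdk4 and 1.81 for Zbtb16, and -0.90 for Fos and 0.30 for Atf3. With rCD5L in WT mice they were -0.093 for Por and 0.19 for Wee1, -0.29 for Slc9a3 and 0.26 for Edn1, -0.98 for Zbtb16 and 0.083 for Klf9, and -0.72 for Fosb and -0.0021 for Junb. Without replicates 3 and 4 of CD5L KO mice given rCD5L, the genes named for CD5L KO against WT given rCD5L had 0.065 (Tsc22d3), 0.027 (Por), -0.031 (Edn1), -0.15 (Slc9a3), -0.41 (Fkbp5), 0.13 (Sgk1), -0.52 (Fos) and 0.023 (Atf3), and those for rCD5L in CD5L KO mice had 0.29 (Tsc22d3), 0.16 (Usp2), 0.25 (Edn1), 0.21 (Sgk1), -0.47 (Pdk4), 2.13 (Zbtb16), -0.61 (Fos) and 0.097 (Atf3).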

How the data were processed

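Bulk RNA-seq of 19 obstructed kidneys was analysed, grouped by the sample labels, with columns assigned by sample name. The deposited counts per gene were not normalized: the authors made them with featureCounts from random-primed paired-end reads, after Trimmomatic and HISAT2 on GRCm38 (versions, strand setting and the treatment of reads with several matches are not given in the sources used here). The authors also deposited FPKM, which are these counts per gene length and scaled library size, and tested genes with DESeq2.

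The quasi-likelihood test of edgeR 4.0.16 in R 4.3.3 was used on the counts, after TMM scaling and filterByExpr (minimum count 10), on the 2 groups of a comparison alone in each fit and all 19 kidneys in the interaction and the test for any difference. Benjamini-Hochberg adjustment ran over all genes tested, and genes with an adjusted p under 0.05 are said to have passed or been called. CPM use TMM-scaled library sizes, and log2 CPM a prior count of 2. SE is the log2 fold change over the root of F. Arntl and Dbp were tested with 100000 resamples. Tests were checked on simulated counts. Intervals and limits from counts cover counting error only. Nothing in the sources says more of the replicates than that they are separate mice, and no 2 kidneys of a group agreed within sampling noise (chi-square per degree of freedom of at least 7.1).

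The clock genes and all lists were chosen with earlier results of these data known. All 10 clock genes are named, and a list gene where it passed or had the largest or smallest value of its list in a comparison. Alternatives were limma 3.58.1 on log2(FPKM + 1) or log2(FPKM + 0.1), DESeq2 1.42.0, scaling by RLE factors, a filter of 10 counts in each kidney, none at all, a fit of all 4 groups, a block for the replicate number, and each kidney left out in turn. Leaving out the 2 kidneys that stood apart and the averaged contrasts were chosen after seeing the data. Some genes that this rule names are not reported here.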

Additional observations from a re-analysis of the deposited data

Results flagged for a closer look

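Of 44 sets of kidneys, 1 per gene or arm difference and group, 1 held a kidney far from the others: Clock was 30.3 CPM in replicate 3 of CD5L KO mice given rCD5L, with a gap to the next kidney of 0.782 of the range of the group, above the limit of Dixon's test for 5 samples. Chance flags about 1 in 20 such sets. The same kidney had the lowest Nr1d2 of all 19 kidneys, at 86.1 CPM, and a low scaling factor, 0.874.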

How the results depend on the processing

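Of 1260 values of single clock genes under alternative settings, 66 had the other sign than the main fit, in 21 of 60 gene and comparison pairs, and none of these passed in either fit. In CD5L KO against WT given PBS, DESeq2 called 2 clock genes. All 4 groups in 1 fit called 12 genes and 0 clock genes. Leaving out 1 kidney gave 1015 to 2062 genes and 1 to 2 clock genes, with counts off by over 1.5 times without CD5L KO replicates 1 (1038) and 2 (1215) or WT replicates 2 (1121) and 4 (1015). For rCD5L in CD5L KO mice, DESeq2 called 3 genes. For rCD5L in WT mice, DESeq2 called 508 genes and the fit with no filter 137, and leaving out 1 kidney gave 0 to 39 (39 without WT replicate 1 given PBS). In CD5L KO against WT given rCD5L, DESeq2 called 64 genes, all 4 groups in 1 fit 1291 genes and 1 clock gene, the fit without the 2 kidneys that stood apart 644 genes and 1 clock gene, and leaving out 1 kidney 0 to 1 genes. For any difference, where 416 genes passed, DESeq2 called 2260 genes, the fit with no filter 138, a filter of 10 counts in each kidney 634, and the fit without the 2 kidneys 3648, and leaving out 1 kidney gave 52 to 1760 genes and 0 to 1 clock genes (708 to 1760 genes without any 1 CD5L KO kidney given rCD5L, 52 to 273 without any 1 other). The cause of these changes was not tested. For Arntl and Dbp, leaving out 1 kidney gave r from -0.74 to -0.50 (-0.50 without replicate 3 of CD5L KO mice given rCD5L), and r was -0.31 without replicates 3 and 4 and -0.52 without replicates 1 and 3 of that group. Over all genes the replicate numbers did not pair the kidneys (same-numbered deviations correlated at -0.19 to 0.17): with the replicate block, 39 genes and 1 clock gene passed for any difference, Nr1d1 in CD5L KO against WT given PBS was -0.61 (adjusted p = 0.00269, edgeR), and Arntl against Dbp was r = -0.80. In all 4 same-numbered pairs given PBS, Per1, Arntl and Nr1d1 were lower in the CD5L KO kidney, and Per2 and Dbp were higher. Lower in CD5L KO were 3 pairs for Npas2 and Per3, 2 for Nr1d2 and 1 for Clock and Tef. The value of Per1 was -0.24 without and -0.099 with the block (adjusted p = 0.263, edgeR). Whether the numbers pair the kidneys for the clock genes alone was not tested. The block changed no call of a clock gene, and in none of the 4 comparisons did each kidney correlate best with its own number. Depth limits Arntl and Npas2, with 38 to 264 counts per kidney.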
